A study of Mus musculus with 76 samples.

Results

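Wnt ligands, their Frizzled receptors and the secreted Sfrp and Dickkopf antagonists were followed in microdissected mouse lung, in alveolar septa and in vessels. The genes were all those whose symbol in the probe annotation was Wnt, Fzd, Sfrp or Dkk followed by a number and, where present, the letter a or b. This gave 37 genes, 19 Wnt, 10 Fzd, 4 Sfrp and 4 Dkk, beside 20710 genes tested in all. They were read by 43 array features, and for each of the 6 genes with more than 1 probe the probe with the highest mean over all 76 arrays was used. Wnt10b had a single feature with 1 empty value, so it stood outside the main fits, which held 36 of the genes, and was described over 75 arrays.

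Wnt proteins are lipid-modified ligands that bind Frizzled receptors, membrane proteins, together with the coreceptors Lrp5 and Lrp6. Binding stabilises beta-catenin, which switches on target genes with Tcf and Lef factors, or it acts through planar polarity and calcium branches that do not need beta-catenin. Sfrp proteins resemble the ligand-binding part of Frizzled and hold Wnt ligands outside the cell, and Dickkopf proteins Dkk1, Dkk2 and Dkk4 bind the Lrp coreceptors, while Dkk3 is a divergent member. In the lung the pathway is known for branching of the airways, for the alveolar stem cell niche and for growth of vascular smooth muscle.

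Each array was a single-colour Agilent hybridization of amplified RNA from tissue of 1 mouse, and 40 mice gave 39 arrays of septa and 37 of vessels. The mice were wild-type or carried a knockout of Noxo1 (C57BL/6-Noxo1(tm1881_17.2Arte)), which encodes the subunit that assembles the NADPH oxidase NOX1, and the knockout is not tied to a cell type in the labels. Mice of either genotype breathed cigarette smoke holding 140 mg/m3 of particles for 6 h on 5 days a week, from week 12 of age, or were kept as controls. The labels of the groups give 3 or 8 months for smoke-exposed and control mice alike, so that months also stand for age. The 16 groups of genotype, exposure, tissue and months held 4 or 5 arrays each.

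Values are log2 signals, and a difference of 1 means a 2-fold ratio. A level of 3.97 was taken as background, the 95th percentile of the signals of 1310 odorant and vomeronasal receptor genes, and 53.3% of all genes had a mean above it. Array signals carry no counts, and a signal of 1 probe cannot be set against that of another, so levels are compared within a gene. In tissue pieces, fewer cells of a type and less RNA per cell cannot be told apart.

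The tissues were checked against marker genes of lung cells. Of the markers of smooth muscle 10 of 10 were higher in vessels, where the mean log2 signal of the list was 9.61 to 11.5 per array against 5.48 to 7.19 in septa. Type 1 and type 2 pneumocyte markers were lower in vessels for 10 of 10 genes each. Ciliated cell markers were higher in vessels for 9 of 10 genes, with list means from 3.95 to 9.95, and markers of the heart muscle of pulmonary veins for 5 of 6, from 4.02 to 13.1. Mouse 7, a knockout, showed a male pattern of Xist and Y-linked genes in septa and a female pattern in vessels. Mouse 29, a wild-type, showed the reverse. Both were controls at 8 months, among 35 mice with both tissues, and whether arrays were exchanged was not tested. Counts over 35 mice include these 2 doubtful pairs; without them Sfrp2 was higher in vessels in 33 of 33 mice and Wnt3a lower in 29 of 33. The female pattern was seen on 4 of 19 septa arrays of controls and 10 of 20 of smoke-exposed mice, and on 3 of 19 and 9 of 18 vessel arrays. Mouse 25, a wild-type control at 3 months, had 2 vessel arrays, whose mean was used in the fits within vessels. Noxo1 ranged from 1.39 to 5.57 in wild-type and 1.45 to 3.76 in knockout septa, and from 1.92 to 6.69 in wild-type and 1.6 to 7.03 in knockout vessels. These ranges overlapped, and whether the probe lies in the deleted part was not tested.

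Promoters are shown for the 2 genes with the lowest p in each direction of the tissue comparison that had an entry in the RefSeq table of GRCm38.p6, as the 250 bases before the annotated start, 5′ to 3′ on the strand of the gene. Capitals mark GGGCGG, the core of the GC box bound by Sp factors, on either strand, and TATAAA and CTTTGA, the core of the Tcf and Lef motif, would be marked likewise. The places are chr3:83766071-83766320 on the plus strand for Sfrp2, chr11:59306680-59306929 plus for Wnt9a, chr11:59290752-59291001 minus for Wnt3a and chr7:89404116-89404365 plus for Fzd4. In the RefSeq gene list the Sfrp2 gene starts at 83765750, so its window lies inside the gene as listed there. The Wnt9a gene starts at 59306849 in that list, inside its window. What these windows hold thus depends on the start chosen.
Sfrp2: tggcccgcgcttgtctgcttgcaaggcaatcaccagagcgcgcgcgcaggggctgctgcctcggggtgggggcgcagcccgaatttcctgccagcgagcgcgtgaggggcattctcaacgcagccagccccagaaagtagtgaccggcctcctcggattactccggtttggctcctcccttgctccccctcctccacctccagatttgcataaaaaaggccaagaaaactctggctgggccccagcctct
Wnt9a: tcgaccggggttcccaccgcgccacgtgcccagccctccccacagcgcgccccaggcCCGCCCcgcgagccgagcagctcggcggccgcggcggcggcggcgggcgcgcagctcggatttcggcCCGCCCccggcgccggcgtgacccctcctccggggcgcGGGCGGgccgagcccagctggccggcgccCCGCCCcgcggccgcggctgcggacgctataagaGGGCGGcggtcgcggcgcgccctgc
Wnt3a: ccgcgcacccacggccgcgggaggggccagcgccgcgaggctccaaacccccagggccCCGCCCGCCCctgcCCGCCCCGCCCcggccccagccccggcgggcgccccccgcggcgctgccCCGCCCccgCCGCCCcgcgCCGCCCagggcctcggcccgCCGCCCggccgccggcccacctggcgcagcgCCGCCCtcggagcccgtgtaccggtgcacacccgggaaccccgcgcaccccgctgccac
Fzd4: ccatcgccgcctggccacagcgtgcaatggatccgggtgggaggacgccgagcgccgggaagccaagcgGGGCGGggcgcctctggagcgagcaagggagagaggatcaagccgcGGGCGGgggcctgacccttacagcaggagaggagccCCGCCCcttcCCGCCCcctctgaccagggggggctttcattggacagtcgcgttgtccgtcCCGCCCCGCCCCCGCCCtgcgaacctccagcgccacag

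No letters are capital in the Sfrp2 window, whereas GGGCGG stood more than once in the other three. Of the 37 genes 25 had a window in the table, and 19 of these held GGGCGG, against 32.7% of 32851 windows of the same length. TATAAA was in 4 of the 25 (12.4% of all windows), CTTTGA in 3 (13.8%) and the CArG box, the motif of serum response factor, in 0 (1.47%). Among genes higher in vessels 5 of 6 windows held GGGCGG, as did 3 of 3 among genes lower there. Wnt3a and Wnt9a are neighbours on chromosome 11, read away from each other from the start sites of these windows, 16179 bases apart, and their tissue differences had opposite signs, as given with the ligands.

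Vessels and septa differed in 14 of the 36 genes tested, 10 higher and 4 lower in vessels (limma over 76 arrays with the mouse as a random block, Benjamini-Hochberg adjusted p under 0.05 over all genes). The same threshold was passed by 28.9% of all genes, 12.7% higher and 16.2% lower. For the 36 genes the shares were 38.9%, 27.8% and 11.1%, and whether the shares differ was not tested. Unadjusted, 17 of 36 passed 0.05, against 38.3% of all genes. The antagonists lay on 1 side, with 5 of 8 higher and 0 lower in vessels and a median log2 difference of 0.87, against 0.02 over all genes. Of the ligands 3 of 18 were higher and 2 lower, and of the receptors 2 of 10 each.

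**Figure D1:**
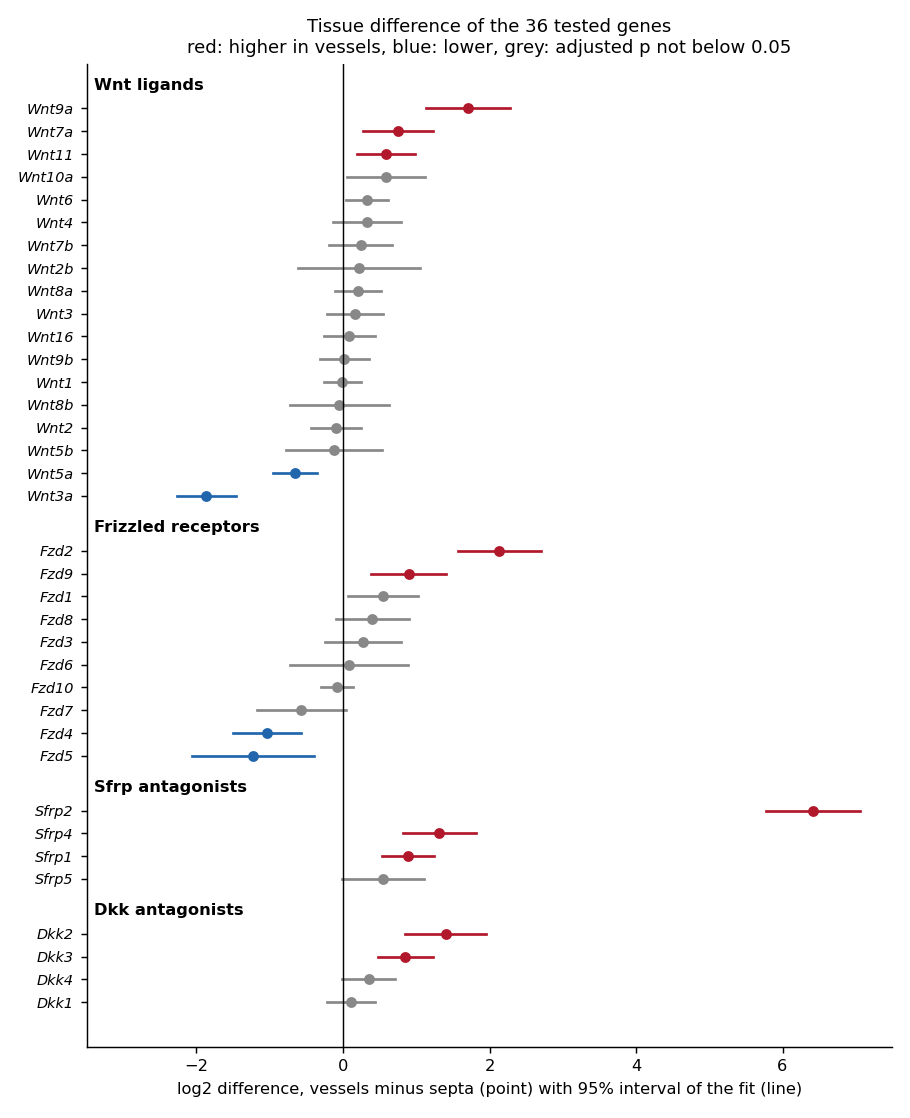
Log2 difference of vessels minus septa for the 36 genes tested, by family, as points with the 95% interval of the fit as lines. Sfrp2 stands alone at 6.42, and coloured points are the 14 genes that passed the adjusted threshold.

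Among the ligands, Wnt9a was higher in vessels. Its signals ran from 0.99 to 5.11 with a median of 2.83 in septa and from 1.55 to 7.28 with a median of 4.88 in vessels. The ranges overlapped, but 27 of 37 vessel arrays and 7 of 39 septa arrays were above background. The log2 difference was 1.71 ± 0.29 (SE, adjusted p = 1.82e-06), with vessels higher in 30 of 35 mice and in all 8 combinations of genotype, exposure and months. Since the septa signals were mostly at background, the size is uncertain.

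Wnt3a, a ligand of the beta-catenin branch, moved the other way. It ran from 1.81 to 6.02 with a median of 4.12 in septa, and from 1.09 to 4.43 with a median of 1.86 in vessels, where 1 of 37 arrays was above background. It was lower in vessels by -1.87 ± 0.21 (adjusted p = 1.12e-11), in 31 of 35 mice and in all 8 combinations, from -3.03 in knockout controls at 8 months to -0.58 in knockout controls at 3 months. Since the vessel signals were near background, the size of the difference is uncertain.

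Wnt5a, the main ligand of the branch without beta-catenin, was well above background on all 76 arrays. Septa ran from 7.08 to 9.63 (median 8.41) and vessels from 6.13 to 9.57 (median 7.57). The ranges overlapped almost fully, but the level in vessels was lower in 30 of 35 mice and in all 8 combinations, by -0.66 ± 0.16 (adjusted p = 0.00054). Over the 16 groups its mean ran from 7.0 in knockout control vessels at 8 months to 8.84 in knockout smoke septa at 3 months.

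Wnt7a and Wnt11 were higher in vessels too. Wnt7a had medians of 3.16 in septa and 4.22 in vessels, a log2 difference of 0.75 ± 0.24 (adjusted p = 0.0128), higher in 26 of 35 mice and all 8 combinations. Wnt11, a ligand known from polarity signalling, had medians of 4.18 and 4.68 and a difference of 0.59 ± 0.20 (adjusted p = 0.0198). Wnt11 was higher in 22 of 35 mice and in 7 of 8 combinations, the exception being wild-type smoke at 3 months at -0.59. Wnt7a was above background in 5 of 16 groups, all of vessels, so its size is uncertain, and Wnt11 in 14.

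The other 13 ligands tested did not pass. Wnt1, Wnt2b and Wnt5b had means above background in 16, 16 and 15 groups, with tissue differences of -0.01 ± 0.13, 0.22 ± 0.43 and -0.13 ± 0.33. The 95% interval was -0.25 to 0.24 for Wnt1, which was thus bounded closely, and -0.61 to 1.06 for Wnt2b, which was not. Wnt1 varied little, from 4.81 to 6.84 over all vessel arrays, and its group means ran from 4.97 to 6.29. Wnt2b ran from 1.4 to 9.16 in vessels and Wnt5b from 1.92 to 8.99. Wnt2, Wnt3, Wnt6, Wnt7b, Wnt8a, Wnt9b, Wnt10a and Wnt16 had means below background in all 16 groups, so the size of any tissue difference is uncertain there. Of these only Wnt6 and Wnt10a had an unadjusted p under 0.05, at 0.33 ± 0.15 and 0.58 ± 0.27 (adjusted p = 0.0851 and 0.102). Wnt4 and Wnt8b had means above background in 1 and 4 groups. Wnt10b, fitted with the genes holding empty values, was lower in vessels by -0.90 ± 0.25 (adjusted p = 0.00399), with vessels lower in 25 of 34 mice. Its medians were 4.60 in septa and 3.55 in vessels. Above background were 28 of 39 septa and 12 of 36 vessel arrays, so the size is uncertain.

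**Figure D2:**
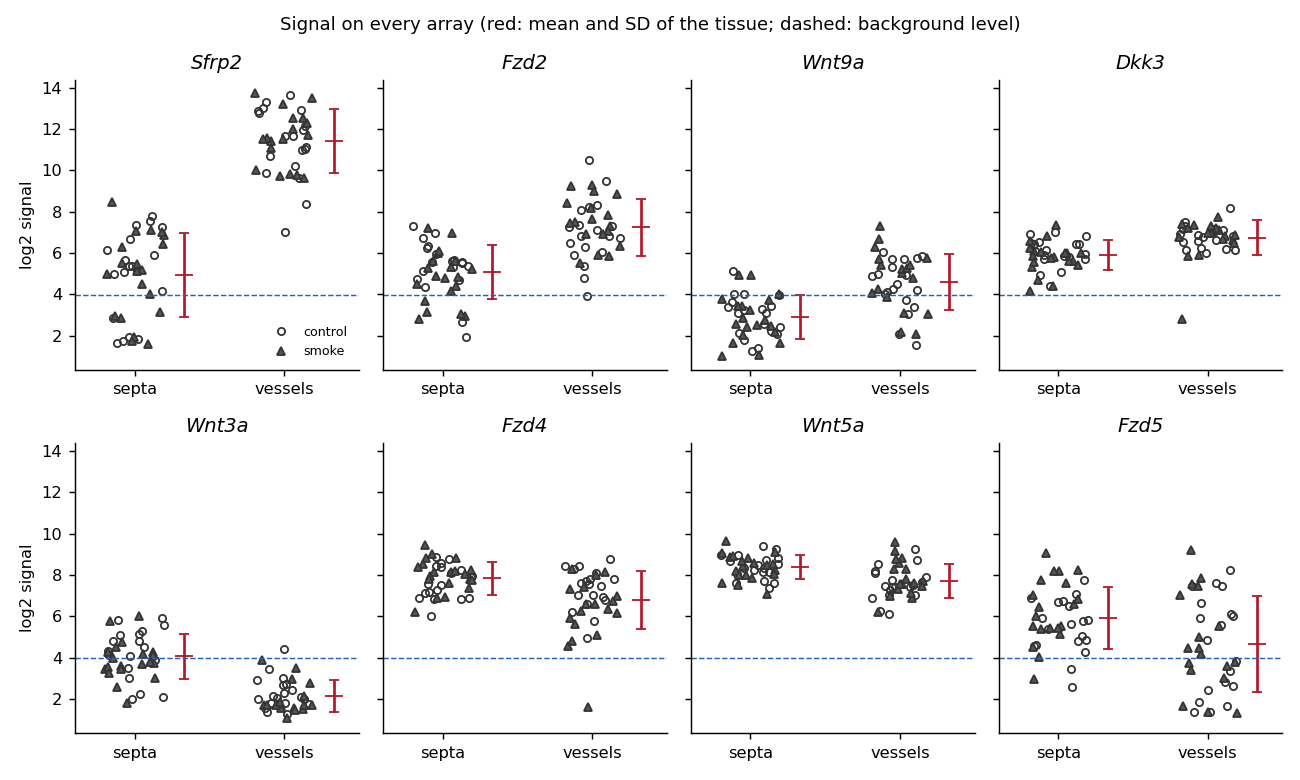
Log2 signal of 8 genes on each array, septa beside vessels, control as open circles and smoke as filled triangles; the red bar gives mean and SD of the tissue and the dashed line the background level of 3.97. Only Sfrp2 approaches separation, while the other genes overlap between tissues.

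Among the receptors, Fzd2 was higher in vessels. Septa ran from 1.94 to 7.29 (median 5.31) and vessels from 3.91 to 10.5 (median 7.26). Vessels were higher in 33 of 35 mice and all 8 combinations, with a log2 difference of 2.14 ± 0.29 (adjusted p = 4.62e-09). A second Fzd2 probe gave 2.47 ± 0.40 (adjusted p = 6.68e-07 among all features tested singly). By group, the mean ran from 4.48 in wild-type smoke septa at 3 months to 8.07 in knockout control vessels at 8 months.

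Fzd4, the receptor of Norrin and Wnt in endothelial cells, was lower in vessels. Septa ran from 6.01 to 9.43 (median 7.93) and vessels from 1.61 to 8.75 (median 6.97). It was lower in vessels by -1.03 ± 0.24 (adjusted p = 0.000359) and in 24 of 35 mice, and in 7 of 8 combinations, the exception being wild-type controls at 8 months at 0.96. The markers of capillary endothelium were lower in vessels too, for 9 of 10 genes, with list means of 7.79 to 9.52 per vessel array against 9.25 to 10.3 per septa array, and their part in the Fzd4 difference was not tested.

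Fzd5 and Fzd9 passed with less support. Fzd5 was lower in vessels by -1.23 ± 0.42 (adjusted p = 0.0215), from a median of 5.76 in septa to 4.44, but vessel signals ran from 1.33 to 9.21 and a second probe gave 0.46 ± 0.21 (adjusted p = 0.0889), so the probes disagreed in sign. By the first probe vessels were the higher tissue in 12 of 35 mice and in 2 of 8 combinations. With the mean of all probes the Fzd5 difference was -0.38 (adjusted p = 0.264), and with array weights -1.05 (adjusted p = 0.0513). Fzd9 was higher by 0.90 ± 0.26 (adjusted p = 0.0056), with medians of 2.13 and 2.40 that both lay below background, and its mean was above background in 1 group. Vessels were higher in 22 of 35 mice and 7 of 8 combinations, and 7 of 37 vessel arrays were above background, so the size is uncertain. Its means in septa and vessels were 2.1 and 2.2 at 3 months, and 2.1 and 3.9 at 8 months. The limma test of a different tissue effect by months did not pass for Fzd9 (adjusted p = 0.315).

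Of the 6 receptors that did not pass, Fzd1, Fzd6 and Fzd7 were above background in all 16 groups. Fzd1 had a difference of 0.55 ± 0.25 (adjusted p = 0.086), Fzd6 0.09 ± 0.41 and Fzd7 -0.57 ± 0.31 (adjusted p = 0.17). The second Fzd7 probe pointed the other way, at 0.49 ± 0.35. Fzd6 spread from 2.11 to 8.86 in septa and from 2.15 to 10.2 in vessels. Fzd3 and Fzd8 were above background in 1 and 2 groups and Fzd10 in 0.

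Sfrp2 had the largest tissue difference of the 36 genes. Septa ran from 1.6 to 8.47 (median 5.2), with 28 of 39 arrays above background, and vessels from 7.03 to 13.7 (median 11.6), all above it. The 2 ranges overlapped between 7.03 and 8.47, yet within a mouse vessels were higher in 35 of 35, by 0.36 to 11.8 log2 units with a median of 5.88. The fitted difference was 6.42 ± 0.33, or 85.4-fold (adjusted p = 2.83e-27). It held in all 8 combinations, from 4.83 in knockout controls at 8 months to 8.05 in knockout smoke at 3 months. Because 11 septa arrays were at background, the fold is uncertain there. Fibroblast markers, which include matrix-producing cells known to make Sfrp2, were mixed, with 6 of 10 higher and 4 lower in vessels and list means of 8.79 to 10.8 per vessel array against 7.87 to 9.47 in septa. The part of fibroblasts and of smooth muscle in this difference was not tested.

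Dkk3 was above background in all 16 groups. It ran from 4.13 to 7.35 (median 5.96) in septa and from 2.79 to 8.16 (median 6.84) in vessels, a difference of 0.85 ± 0.19 (adjusted p = 0.000226). Dkk3 was higher in vessels in 30 of 35 mice and in 7 of 8 combinations, the exception being wild-type smoke at 3 months at -0.11. Sfrp1, Sfrp4 and Dkk2 rose by 0.89 ± 0.18, 1.31 ± 0.25 and 1.40 ± 0.28 (adjusted p = 4.91e-05, 2.11e-05 and 5.1e-05). They were higher in vessels in 28, 26 and 27 of 35 mice and in 7, 8 and 8 of 8 combinations. Their septa arrays were at background nearly throughout, with 1, 0 and 0 of 39 above it, and 8, 13 and 13 of 37 vessel arrays were above it, so these 3 sizes are uncertain. Sfrp5 had a difference of 0.55 ± 0.29 (adjusted p = 0.147). Dkk1 and Dkk4, antagonists at Lrp coreceptors, were below background in every group and did not pass.

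**Figure D3:**
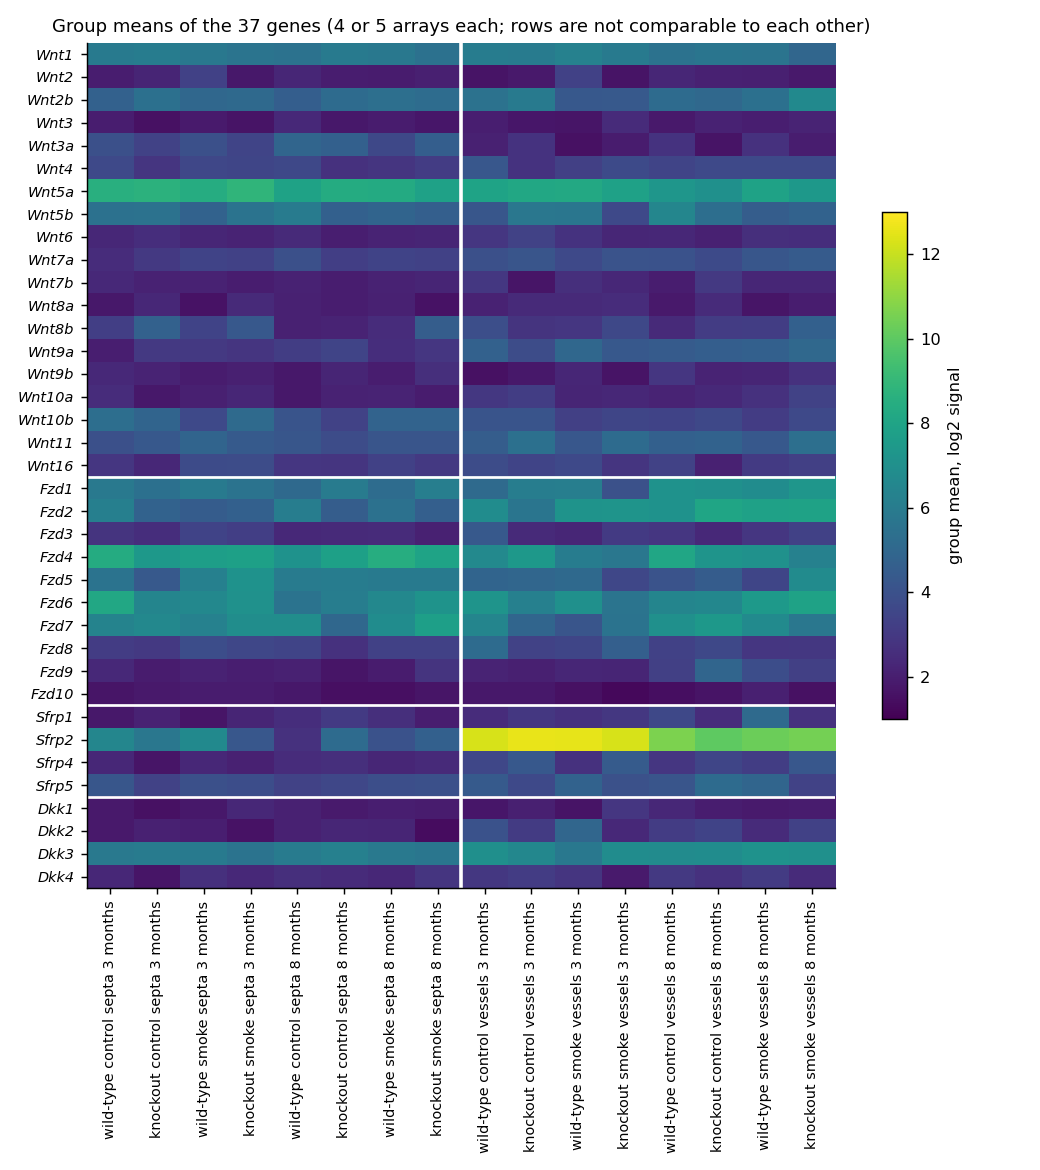
Mean log2 signal of the 37 genes in each of the 16 groups of 4 or 5 arrays, septa to the left and vessels to the right of the white line. Colours compare groups within a gene; the Sfrp2 row runs from 2.69 in wild-type control septa at 8 months to 12.6 in knockout control vessels at 3 months.

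Arrays of vessels varied more than arrays of septa. The spread within groups was larger in vessels for 33 of the 37 genes, with a median SD of 1.22 log2 units against 0.74. Each array correlated with the rest of its tissue at a median of 0.801 to 0.882 in vessels and 0.897 to 0.935 in septa. In all, 9 of the 37 genes were above background in all 16 groups, 17 in some and 11 in none. Of the 14 genes that differed between tissues, 7 had both tissue means above background and 4 had neither.

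Of a list of 69 other genes of the pathway, 12 were higher and 18 lower in vessels, again against 12.7% and 16.2% of all genes. Among secreted antagonists 4 of 9 were higher and 0 lower, led by Igfbp4, at 2.33 ± 0.17 (adjusted p = 2.7e-19), a binding protein of insulin-like growth factors that also blocks Wnt receptors. Dkkl1, Sost and Frzb were the others, at 0.82, 0.69 and 0.45, with Sost and Frzb below background in both tissues and Dkkl1 in septa. Of the 30 listed genes that passed, 7 had the mean of 1 tissue below background (Axin2, Dkkl1, Fgf18, Lef1, Myc, Rnf43 and Ror1), so that the sizes for these and for Sost and Frzb are uncertain. Among coreceptors and alternative receptors, Ror1, a receptor tyrosine kinase for Wnt5a, was higher by 2.11 ± 0.36 and Ptk7, a polarity pseudokinase, lower by -1.11 ± 0.28, while Lrp5 and Lrp6 did not pass at -0.23 ± 0.10 and 0.42 ± 0.22. Porcn, the acyltransferase that lipid-modifies Wnt ligands, was higher by 1.08 ± 0.27.

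The listed targets were split, with 3 of 12 higher and 5 lower. Axin2 and Nkd1, feedback inhibitors induced by beta-catenin, were lower in vessels by -1.59 ± 0.24 (adjusted p = 1.24e-07) and -1.62 ± 0.14 (adjusted p = 2.64e-15), as were Nkd2 at -0.62, Fgf18 at -2.32 and Cd44 at -0.34. Myc was higher at 1.46 ± 0.28, and so were the matricellular genes Ccn4 and Ccn5 at 1.57 and 1.69. Of the nuclear factors, Tcf7, Lef1 and Tle1 were lower at -1.88, -1.54 and -0.66, and Tcf7l1, known mostly as a repressor, higher at 1.27. Of 19 cytoplasmic and polarity genes 8 were lower, among them Prickle1 at -2.04 and Vangl2 at -1.14, and 1 was higher, Dvl3 at 0.70. Beta-catenin itself, Ctnnb1, was lower by -0.45 ± 0.08. Tcf7 and Lef1 are also expressed in lymphocytes, of which only B cells had a marker list here, and T cells had none. Of the B cell markers 4 of 5 were lower in vessels, with list means of 3.84 to 6.99 against 5.69 to 7.77 in septa. The part of lymphocytes was not tested.

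For cigarette smoke none of the 36 genes passed the adjusted threshold. This held in each genotype, tissue and time and for the mean over genotype and months in each tissue, where 0% of all genes passed, apart from wild-type septa at 3 months with 1 gene of 20710 (0.00483%), which was none of these. At an unadjusted p under 0.05, 2, 1, 3 and 5 of 36 passed in septa (wild-type 3 and 8 months, then knockout 3 and 8 months), against 5.09%, 5.79%, 3.54% and 6.55% of all genes. In vessels 4, 1, 3 and 0 passed in that order, against 6.12%, 2.94%, 6.2% and 4.3%. For the means over strata it was 2 in septa and 1 in vessels, against 7.7% and 5%.

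The lowest p for smoke belonged to Fzd7 in knockout septa at 8 months. The control arrays read 6.44, 3.72, 4.94, 5.53 and 4.44, and the smoke arrays 7.14, 8.96, 8.15, 7.74 and 6.89. The groups did not overlap, and the log2 difference was 2.76 ± 0.64, but the adjusted p was 0.334. Over the mean of both Fzd7 probes the difference was 1.56 ± 0.57 (adjusted p = 0.642). A female pattern was seen on 0 of the 5 control and 4 of the 5 smoke arrays, so that exposure and sex nearly coincide here; with the inferred sex as a covariate the difference was 2.42 ± 0.72 (adjusted p = 0.524). The control array at 3.72 was that of mouse 7, and without mice 7 and 29 the difference was 2.44 ± 0.65 (adjusted p = 0.49). In wild-type septa at 8 months the means of Fzd7 were 6.87 in controls and 6.85 with smoke, and in vessels the mean effect over strata was -0.97 ± 0.53 (adjusted p = 0.977). Under other processing settings this vessel effect ran from -1.23 to -0.34. Next in knockout septa at 8 months came Fzd9 at 1.08 ± 0.36 (adjusted p = 0.587), with both groups at background.

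**Figure D4:**
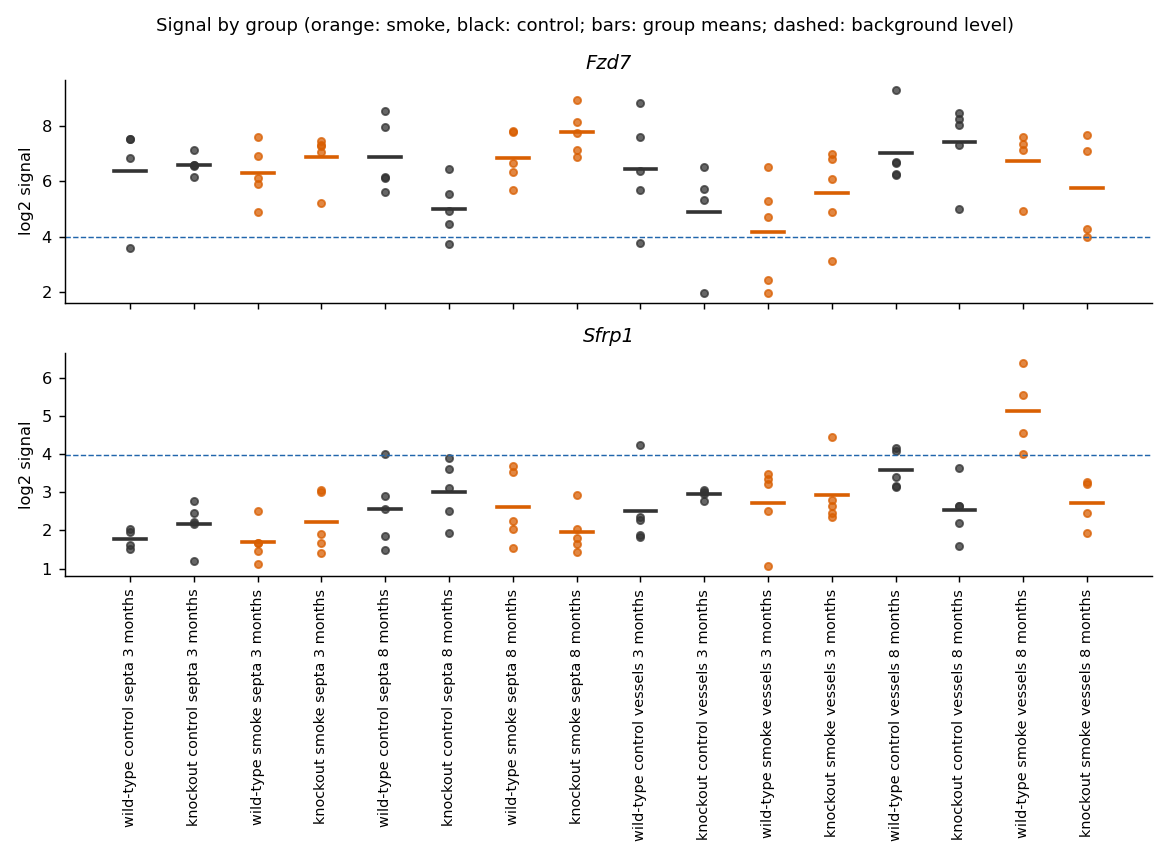
Log2 signal of Fzd7 and Sfrp1 on each array in the 16 groups, smoke in orange and control in black, with group means as bars and the background level dashed. Fzd7 in knockout septa at 8 months separates by exposure, and Sfrp1 lies above background as a mean in wild-type smoke vessels at 8 months only; neither passed adjustment over all genes.

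In knockout septa at 3 months, Fzd5 read 2.57, 4.6, 5.36, 4.29 and 4.86 in controls and 6.58, 4.04, 8.24, 9.07 and 7.6 with smoke, a difference of 2.77 ± 0.83 (adjusted p = 0.999), with 1 smoke array inside the control range. Wnt16 followed at 1.49 ± 0.47 (adjusted p = 0.999), below background in both groups. Over all strata of septa Wnt16 had the lowest p, at 0.73 ± 0.24 (adjusted p = 0.55) and positive in 4 of 4 strata, then Fzd7 at 0.73 ± 0.33 (adjusted p = 0.599). Fzd2, Fzd5, Fzd7 and Wnt16 had more than 1 probe, and their sizes depended on the processing settings. Under other settings the Fzd5 difference ran from 1.47 to 2.93. That of Wnt16 ran from 0.53 to 1.53 in knockout septa at 3 months, and from 0.21 to 0.76 over strata. That of Fzd7 over strata ran from 0.49 to 0.80. In wild-type septa the lowest p belonged to Wnt2 at 3 months (1.37 ± 0.52, adjusted p = 0.902), then Fzd2 (-1.71 ± 0.81), and to Fzd4 at 8 months (1.36 ± 0.45, adjusted p = 0.734), then Wnt3a (-1.32 ± 0.67). Under other settings this Fzd2 difference ran from -1.71 to -0.85. Wnt2 was above background on 1 of 39 septa arrays, so its size is uncertain.

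In wild-type vessels at 3 months Wnt2 read 1.93, 1.46, 2.18, 1.4 and 1.21 in controls, the pair of mouse 25 arrays included, and 2.35, 2.91, 5.69, 3.2 and 2.52 with smoke. The groups did not overlap, but 1 array was above background, and the difference of 1.62 ± 0.51 had an adjusted p of 0.608. Fzd7 followed at -2.63 ± 1.05 (adjusted p = 0.775), and under other processing settings it ran from -3.21 to -1.78. At 8 months Sfrp1 was first at 1.54 ± 0.61 (adjusted p = 1) and Fzd10 next. In knockout vessels Fzd1 was first at 3 months at -2.08 ± 0.84 (adjusted p = 0.711), then Wnt6, and Wnt16 at 8 months at 1.14 ± 0.60 (adjusted p = 1), then Sfrp5. Under other processing settings the Wnt16 difference at 8 months ran from 0.48 to 1.62. Over strata of vessels Fzd4 had the lowest p, at -1.02 ± 0.43 (adjusted p = 0.977) then Fzd7. Its 4 strata were negative, but in knockouts at 8 months this came from 1 smoke array: the smoke arrays read 7.34, 8.15, 8.0 and 1.61 and the controls 6.79, 7.6, 7.04, 7.05 and 7.69. Without the array at 1.61 that stratum was 0.60, and the mean over strata was -0.63 ± 0.31 (adjusted p = 0.98).

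Between knockout and wild-type mice 0 of the 36 genes passed in any comparison, and 0% of all genes did. Unadjusted, 1 and 4 of 36 passed in control septa at 3 and 8 months, against 3.07% and 4.73% of all genes, and 2 and 3 in smoke septa, against 5.05% and 4.38%. In control vessels 0 and 2 passed, against 5.61% and 4.03%, and in smoke vessels 4 and 2, against 7.13% and 3.16%. There were 2 in each tissue for the mean over strata, against 3.98% in septa and 4.86% in vessels. The lowest p was that of Sfrp1 in smoke vessels at 8 months. Wild-type arrays read 4.56, 6.38, 4.01 and 5.56, and knockout arrays 2.46, 3.22, 1.93 and 3.26. They did not overlap, and all knockout values lay below background, at a difference of -2.41 ± 0.64 (adjusted p = 1). Wild-type controls of the same time read 4.08, 4.15, 3.13, 3.41 and 3.16. Second there was Fzd5 at 3.31 ± 1.55, and under other processing settings it ran from 1.69 to 3.63.

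In smoke vessels at 3 months Wnt2 was lower in the knockout by -1.69 ± 0.48 (adjusted p = 0.364), with wild-type values as above and knockout values of 1.16, 2.74, 1.08, 1.84 and 1.37, and Fzd1 by -2.12 ± 0.79 (adjusted p = 0.571). In control vessels Fzd3 and Wnt4 had the lowest p at 3 months, at -1.70 ± 0.89 and -1.52 ± 0.80 (adjusted p = 0.891 for both), and Wnt3a and Wnt16 at 8 months (-1.09 ± 0.44 and -1.26 ± 0.57). In control septa these were Fzd4 and Fzd6 at 3 months (-0.97 ± 0.48 and -1.75 ± 0.93) and Fzd7 and Sfrp2 at 8 months (-1.86 ± 0.64 and 2.48 ± 1.00, adjusted p = 0.979 for both). In smoke septa they were Wnt2 and Sfrp2 at 3 months (-1.56 ± 0.49 and -2.47 ± 1.00) and Fzd9 and Wnt8b at 8 months (0.89 ± 0.36 and 2.04 ± 0.88). Wnt2 was above background on 1 and Fzd9 on 0 of 39 septa arrays, so these 2 sizes are uncertain. Over strata, Wnt8b and Fzd2 led in septa at 1.11 ± 0.44 and -0.90 ± 0.39, and Sfrp1 and Sfrp4 in vessels at -0.73 ± 0.30 and 1.01 ± 0.49. Wnt8b had more than 1 probe too. Under other processing settings its difference ran from 1.05 to 2.19 in smoke septa at 8 months, and from 0.67 to 1.21 over strata of septa. That of Fzd2 over strata of septa ran from -0.92 to -0.41. Sfrp2 in septa had opposite signs in control mice at 8 months and smoke-exposed mice at 3 months. In controls at 8 months the knockout groups hold mouse 7 and the wild-type groups mouse 29, whose sex patterns disagreed between tissues. Without these mice none of the 36 genes passed there either. Under other settings, this omission among them, Fzd7 and Sfrp2 in control septa ran from -1.93 to -0.85 and from 2.10 to 3.02. Wnt3a in control vessels ran from -1.19 to -0.71.

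The test of a different smoke effect by genotype passed for 0 of the 36 genes, and for 0% of all genes in either tissue. Unadjusted, 3 of 36 passed in septa (3.8% of all genes) and 0 in vessels (4.38%). The lowest p in septa were those of Dkk2 (-0.87 ± 0.36) and Fzd7 (1.56 ± 0.65), adjusted p = 0.999 for both, and in vessels those of Fzd3 (1.69 ± 0.84) and Wnt2 (-0.92 ± 0.51). Dkk2 was above background on 0 of 39 septa arrays and Wnt2 on 1 of 37 vessel arrays. The test of a different tissue effect passed for 0 of these genes by exposure, where 2 genes of the array did (0.00966%), and for 0 by genotype (0%). Unadjusted, 5 and 3 of 36 passed, against 6.18% and 4.59%. By exposure Fzd4 (-1.36 ± 0.47, adjusted p = 0.688) and Fzd7 (-1.63 ± 0.62, under other settings -1.93 to -0.75) had the lowest p. By genotype these were Sfrp1 (-0.89 ± 0.36) and Sfrp4 (1.20 ± 0.51). With 4 or 5 arrays a group these intervals were wide, and a p that missed the threshold does not show that levels were alike.

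Months were compared in control mice first. There 8 against 3 months passed for 0 of 36 genes in septa and in vessels, where 0.478% and 0.00483% of all genes passed. Unadjusted, 5 of 36 passed in septa and 8 in vessels, against 10.7% and 8.41%. Sfrp2 had the lowest p in both, at -2.21 ± 0.73 in septa (adjusted p = 0.182) and -2.06 ± 0.53 in vessels (adjusted p = 0.18), followed by Wnt8b in septa at -1.83 ± 0.64 and Fzd9 in vessels at 2.00 ± 0.73. Under other processing settings this Wnt8b difference ran from -2.07 to -0.85. Fzd1 led the difference of the tissue effect by months, at 1.82 ± 0.49 (adjusted p = 0.175), followed by Fzd9 at 1.64 ± 0.52, where 0.0338% of all genes passed, none of them among the 36, and 3 of 36 passed unadjusted, against 8.47%.

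A comparison of 8 with 3 months over all 4 combinations of genotype and exposure was added after these values had been seen, so it is no independent support for them. In vessels 2 of 36 genes passed, Sfrp2 lower and Fzd1 higher, where 1.27% of all genes passed. In smoke-exposed mice alone 0 of 36 passed (0.188% of all genes), with Sfrp2 at -2.02 ± 0.53 (adjusted p = 0.0942) and Fzd1 at 2.03 ± 0.59 (adjusted p = 0.141). Sfrp2 ran from 10.2 to 13.7 (median 12.5) at 3 months and from 7.03 to 12.8 (median 10.3) at 8 months, a log2 difference of -2.04 ± 0.37 (adjusted p = 0.0045). In wild-type controls the vessel arrays read 13.0, 11.94, 10.21, 12.89 and 13.3 at 3 months and 10.99, 9.88, 12.78, 8.37 and 11.11 at 8 months. Knockout controls read 12.88, 11.65, 12.15 and 13.63, then 10.69, 11.04, 7.03, 11.67 and 9.62. The groups overlapped within wild-type controls and in knockout controls only the lowest at 3 and the highest at 8 months crossed, and the mean was lower at 8 months in all 4 combinations.

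Fzd1 ran from 1.88 to 7.63 (median 5.52) in vessels at 3 months and from 5.8 to 8.92 (median 6.82) at 8 months, a difference of 1.77 ± 0.42 (adjusted p = 0.025). Its mean was higher at 8 months in all 4 combinations, most in smoke-exposed knockouts, from 3.99 to 7.31. Of the vessel arrays 34 of 37 were above background. The others were all of 3 months, at 1.88 and 2.32 in smoke-exposed knockouts and 2.83 in wild-type controls, so the size is uncertain. Leaving out each of the 37 vessel arrays in turn kept both genes past the threshold, with adjusted p of at most 0.0498 for Fzd1 and 0.0108 for Sfrp2. The difference of the change by exposure was 0.05 ± 0.75 for Sfrp2 and 0.52 ± 0.84 for Fzd1 (adjusted p = 0.999 and 0.995). In septa none of the 36 passed, where 3.5% of all genes did, with Sfrp2 at -1.67 ± 0.51 (adjusted p = 0.0558) and Fzd1 at -0.07 ± 0.29 (adjusted p = 0.95).

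**Figure D5:**
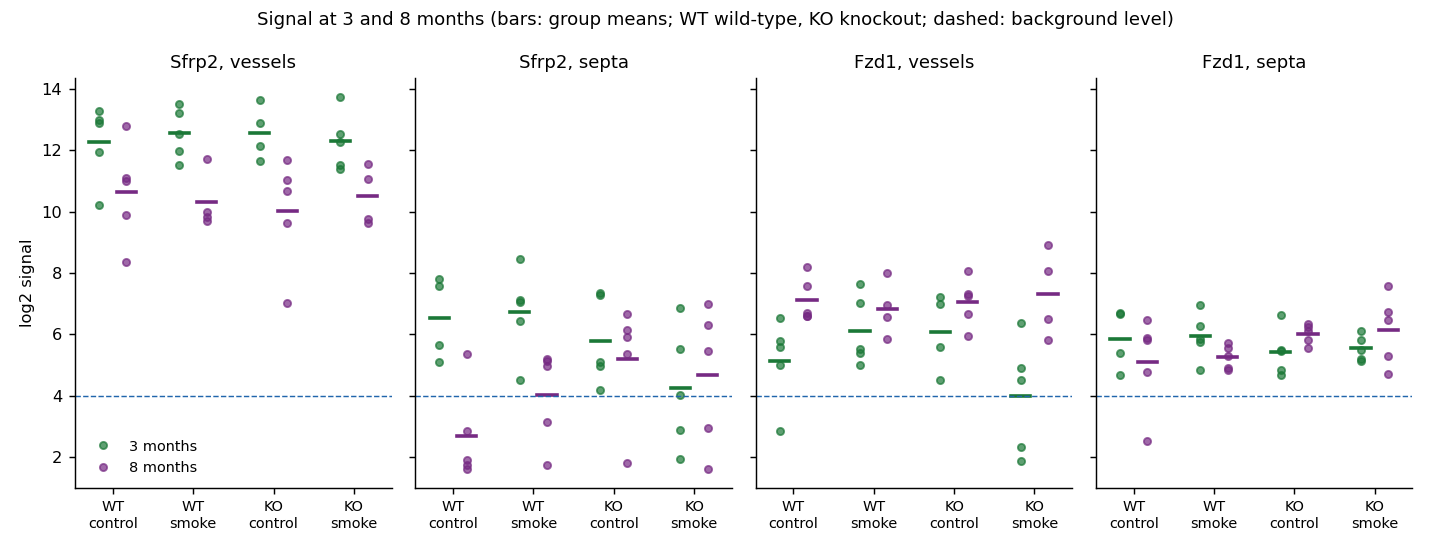
Log2 signal of Sfrp2 and Fzd1 on each array at 3 months (green) and 8 months (purple), by genotype and exposure, with group means as bars and the background level dashed. Sfrp2 means in vessels lie lower and Fzd1 means higher at 8 months in all 4 combinations, while Fzd1 in septa shows no common direction.

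In the same vessel comparison, 0 of 10 smooth muscle and 0 of 10 fibroblast markers passed, with median differences of 0.11 and 0.24, and 1 of 10 markers of arterial and venous endothelium was higher. The largest median shifts among the cell type lists were -0.75 for heart muscle of the pulmonary veins (0 of 6 passed) and -0.40 for chondrocytes (0 of 5). The part of cell make-up in the vessel differences was not tested. The female pattern was seen in 5 of 19 vessel arrays at 3 and 7 of 18 at 8 months. With the inferred sex as a covariate Sfrp2 differed by -1.94 (adjusted p = 0.0097) and Fzd1 by 1.60 (adjusted p = 0.0482), and without mice 7 and 29 by -2.10 and 1.79. Of the 69 other pathway genes only Ctnnb1 and Csnk1a1 passed in vessels, where 1.27% of all genes did. They were higher at 8 months by 0.815 ± 0.133 and 0.63 ± 0.17 (adjusted p = 0.0015 and 0.0482). Csnk1a1 is a kinase that primes beta-catenin for decay. In septa, where 3.5% of all genes passed, only Csnk1a1 and Lrp6 did. Csnk1a1 was higher there by 0.40 ± 0.12 and Lrp6 lower by -1.01 ± 0.29 (adjusted p = 0.0407 and 0.037). Whether the shares differ from those of all genes was not tested. In that septa comparison 2 of 9 alveolar macrophage markers were higher, with a median difference of 1.19 over the list, as were 2 of 10 type 2 pneumocyte markers and 1 of 9 club cell markers, and 3 of 10 markers of arterial and venous endothelium were lower. Their part in the septa differences was not tested. In smoke, genotype and interaction comparisons 0 of the 69 listed genes passed. The time between the groups also holds age, and any difference in handling between the 3 and 8 month mice cannot be told apart from it.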

How the data were processed

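Expression was measured in 76 arrays of microdissected septa and vessels from 40 mice, and 4 further arrays without signal are named in the design text as not analysed. Per the submitters' processing notes the authors used limma, with no version given. The deposited values are log2 signals, and near-equal column medians, from 3.19 to 3.192, show normalization between arrays. How background was corrected, which sets the spread of low signals, was not given in the sources used here. Of 62976 features, 31465 carried 1 gene symbol, 31511 none and 0 several, and 29050 of the named ones matched a RefSeq list by accession.

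The probe with the highest mean stood for its gene, and 285 named features with an empty value were left out. Within each tissue limma 3.58.1 (R 4.3.3; lmFit, then eBayes with a trend) estimated a mean per group, and tissues were compared over all 76 arrays with the mouse as a random block (consensus correlation 0.0262). Adjusted p-values are Benjamini-Hochberg over 20710 genes at 0.05, and scripts were tested on simulated data. Figures were drawn with matplotlib 3.10.9. The members and lists were chosen with earlier results of these data known. Every gene matching the symbol rule is named, with values for all past the threshold, and otherwise the 2 with the lowest p; other pathway genes come from a list of 69. The replicates of a group are separate mice per the labels, apart from mouse 25. Septa and vessels of 1 mouse had residuals correlating at a mean of 0.0298 over 35 pairs, 1 of them over 0.1, and the replicate numbers of different groups at 0.0181, so the numbers were not taken as pairing. Alternatives covered normalization, low signal, probes, array weights, sex, blocks and single arrays.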

Additional observations from a re-analysis of the deposited data

Results flagged for a closer look

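Single arrays that stood apart from the other 3 or 4 of their group were looked for in the 15 genes that passed a tissue or months comparison, in 240 combinations of gene and group. In 18 of these (7.5%) the gap to the nearest array exceeded Dixon's critical value, where chance gives about 1 in 20.

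Sfrp2 read 1.81 in knockout control septa 8 months, replicate 4 (others 5.36 to 6.67), and 11.71 in wild-type smoke vessels 8 months, replicate 1 (others 9.71 to 10.00). Wnt3a read 2.98 in knockout smoke vessels 8 months, replicate 3 (others 1.54 to 1.74). Fzd2 read 1.94 in knockout control septa 3 months, replicate 4 (others 5.32 to 5.63), and 3.91 in knockout control vessels 3 months, replicate 3 (others 6.03 to 6.46). Wnt9a read 1.79 in knockout control septa 8 months, replicate 4 (others 3.41 to 4.03), and 4.07 in knockout smoke vessels 8 months, replicate 2 (others 5.28 to 5.41). Sfrp1 read 4.44 in knockout smoke vessels 3 months, replicate 2 (others 2.36 to 2.79), and 4.25 in wild-type control vessels 3 months, replicate 1 (others 1.82 to 2.34). Dkk3 read 8.16 in knockout control vessels 8 months, replicate 3 (others 6.23 to 6.77), 4.13 in knockout smoke septa 3 months, replicate 5 (others 5.63 to 6.10), and 2.79 in wild-type smoke vessels 3 months, replicate 4 (others 5.91 to 7.18). Fzd4 read 1.61 in knockout smoke vessels 8 months, replicate 4 (others 7.34 to 8.15). Wnt5a read 7.08 in wild-type smoke septa 8 months, replicate 5 (others 8.52 to 8.91). Fzd9 read 1.75 in wild-type control septa 3 months, replicate 2 (others 2.57 to 2.64), and 7.79 in wild-type control vessels 8 months, replicate 4 (others 1.85 to 2.79). Wnt11 read 5.82 in wild-type smoke septa 3 months, replicate 3 (others 4.47 to 4.85). Fzd5 read 8.18 in wild-type smoke septa 8 months, replicate 5 (others 5.12 to 5.54). In 2 cases, Wnt3a and the Fzd9 septa array, the whole group lay below background. The same array, knockout control septa at 8 months replicate 4, gave the low values of Sfrp2 and Wnt9a, and wild-type smoke septa at 8 months replicate 5 those of Wnt5a (low) and Fzd5 (high). No cause was tested.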

How the results depend on the processing

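The count of genes past the threshold kept its value or stayed within 1.5 times of it in 1054 of 1056 recomputed comparisons, and no result reversed. Most of these say little, since 27 of the comparisons had a main count of 0 (lowest adjusted p = 0.175 in limma) and could only gain calls. Loss of calls could show only in the comparison of vessels with septa. The exception was 8 against 3 months in control vessels, with 0 genes: 1 fit over all 76 arrays gave 1 (Fzd9), and the mean over genotype and exposure, added after seeing the data, gave 2 (Fzd1 and Sfrp2). Of 3149 single-gene values, 2 lost their call, both Fzd5 between tissues (-1.05 with array weights and -0.38 with the mean of all probes), and 2 gained one. No call was lost or gained by leaving out an array. Genes whose signal lies near background limit the size of a difference.

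With the replicate number as a block, Sfrp2 and Fzd1 differed by -2.04 and 1.77 between months in vessels, and in septa Wnt5a passed in addition (-0.48, adjusted p = 0.0404). The block changed no other call.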
